A study of Caenorhabditis elegans with 15 samples.

Results

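The genes described here are 10 enzymes of sphingolipid metabolism in the nematode Caenorhabditis elegans, taken by name. They are the ceramidase genes asah-1 and asah-2, the acid sphingomyelinase genes asm-1, asm-2 and asm-3, the ceramide synthase genes hyl-1, hyl-2 and lagr-1, the serine palmitoyltransferase subunit gene sptl-1 and the sphingosine kinase gene sphk-1. Each had 1 probe set annotated to it alone, so that 10 of the 22548 probe sets tested were read, out of 20766 that carry 1 gene symbol. Total RNA from entire animals was read on Affymetrix C. elegans Genome Arrays, with 3 arrays for each of 5 groups. N2 worms, the wild type, were kept on vehicle, on rapamycin (an inhibitor of the kinase TOR) or on allantoin (a product of purine breakdown), whereas eat-2 mutants received vehicle or rapamycin. All 5 groups received DMSO, were moved to the plates around the L4 moult and were collected 72 h later, at 20 °C. The sample titles give the DMSO as 2%, the methods for lifespan plates give another concentration, and which the array plates held is not settled here. The mutants were of the strain DA465 and have lost the function of a subunit of the nicotinic receptor that drives pharyngeal pumping, so that they eat less and serve as a genetic model of caloric restriction. The arrays analysed include no eat-2 worms on allantoin. The comparisons ask how drugs proposed to mimic caloric restriction change expression in the wild type, how the restricted mutant differs from it, and whether rapamycin acts alike in both strains.

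Sphingolipids are membrane lipids built on a long-chain base. Serine palmitoyltransferase makes the precursor of that base, ceramide synthases attach a fatty acid to it to give ceramide, and ceramide is then turned into sphingomyelin or glucosylceramide. In the reverse direction sphingomyelinases release ceramide from sphingomyelin, ceramidases split ceramide into a fatty acid and a free base, and sphingosine kinase phosphorylates that base. The acid members of these families are known mainly as enzymes of the lysosome, and ceramide and phosphorylated bases also act as signals. In C. elegans the base is built from a branched-chain fatty acid.

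The values are log2 signals normalised by RMA, so that a difference of 1 is 2-fold, and levels are compared between groups for 1 probe set and not between probe sets. Array medians ran from 6.79 to 7.06. The N2 controls were the most variable group, with a median SD over all probe sets of 0.21 against 0.0949 to 0.121 in the other 4 groups. All 10 genes had means above 5.14, below which the dimmest 25% of probe sets lie. The probe set of eat-2 itself read between 5.34 and 5.63 in the 5 group means, near that bound, and does not check the strain labels. Defining markers of intestine, germline, muscle, hypodermis, neurons, pharynx, coelomocytes and sperm were above the bound in all groups, except the sperm gene spe-11 in N2 on allantoin and eat-2 on rapamycin. In whole worms, fewer cells of a type and less RNA per cell cannot be told apart. The lifespan plates of the study held FUDR, which blocks the production of embryos. The sources used here do not say whether the array plates did, or whether the 3 arrays of a group came from separate cultures. P-values therefore measure only the spread between these samples, and their small number limits the precision of every value. The probe sets of asm-2, asm-3 and hyl-1 carry the suffix _s_at, which marks probes shared by several transcripts, so related transcripts may add to their signals.

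A probe set is called when it passes the study's threshold, an unadjusted p under 0.05 in limma with a change over 2-fold. Benjamini-Hochberg adjusted p-values over all 22548 probe sets are given beside it. The group means of asah-1, asm-3, asah-2 and asm-2 spanned 3.72, 3.62, 2.99 and 2.42 on the log2 scale, against a median of 0.54 over all probe sets. Only 0.922% of probe sets had a wider span than asah-1. The other 6 genes spanned 0.23 to 0.96, with hyl-2 the narrowest and lagr-1 the widest.

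**Figure D1:**
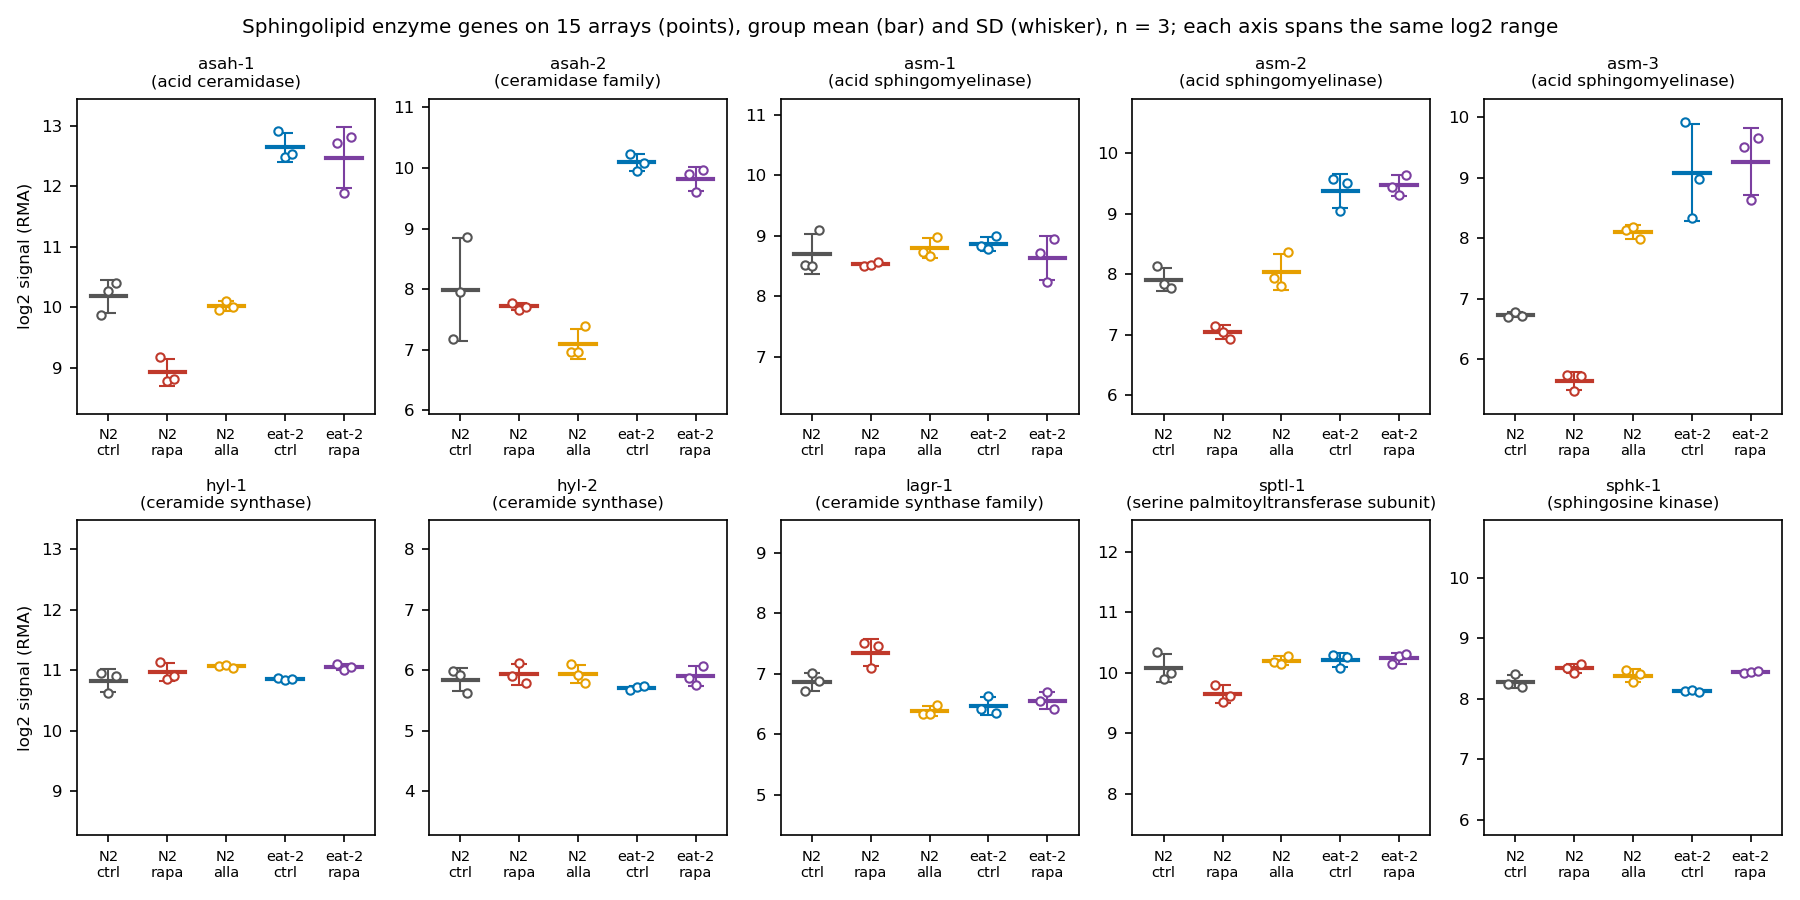
Log2 RMA signal (vertical axis, the same range in each panel) of the 10 genes in the 5 groups, with a point per array, a bar for the mean and a whisker for the SD, n = 3. All 6 eat-2 arrays lie above all 9 N2 arrays for asah-1, asah-2, asm-2 and asm-3, while asm-1, hyl-1 and hyl-2 have group means within 0.34 of each other.

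Ceramidase expression separated the strains. For asah-1 (K11D2.2), which encodes an acid ceramidase, the eat-2 controls read 12.92, 12.48 and 12.53 and the N2 controls 9.87, 10.27 and 10.39. The eat-2 worms on rapamycin read 12.71, 11.89 and 12.82. Every eat-2 array was therefore above every N2 array, and the lowest of them exceeded the highest N2 array by 1.496. Within N2, the allantoin arrays at 9.96, 10.11 and 10.003 lay among the controls, whereas the rapamycin arrays at 9.18, 8.78 and 8.82 lay below all others. The order of group means was N2 rapamycin, N2 allantoin, N2 control, eat-2 rapamycin and eat-2 control, and arrays of the neighbours N2 allantoin and N2 control overlapped, as did those of both eat-2 groups.

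The ceramidase family gene asah-2 (F27E5.1) had the same split between strains. It read 10.24, 9.96 and 10.08 in eat-2 controls and 9.91, 9.60 and 9.97 in eat-2 on rapamycin. The N2 controls scattered widely at 7.17, 7.95 and 8.86, an SD of 0.846 that was the largest of any of the 10 genes in any group. N2 worms read 7.77, 7.66 and 7.70 on rapamycin and 6.95, 6.95 and 7.38 on allantoin. The allantoin arrays were below the rapamycin arrays without overlap, but the lowest N2 control array lay between the allantoin values, and the eat-2 arrays exceeded the highest N2 array by 0.74.

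Of the acid sphingomyelinase genes, asm-3 and asm-2 differed between groups and asm-1 varied least. For asm-3 (W03G1.7) the N2 controls were tightly grouped at 6.70, 6.78 and 6.72. N2 worms read 5.74, 5.47 and 5.72 on rapamycin and 8.14, 8.19 and 7.98 on allantoin, so that these 3 groups did not overlap, with rapamycin below and allantoin above the controls. The eat-2 controls read 9.93, 8.33 and 8.98 and eat-2 on rapamycin 9.50, 8.63 and 9.66. Both eat-2 groups overlapped each other, with SDs of 0.801 and 0.556, and their lowest array was only 0.15 above the highest N2 allantoin array.

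For asm-2 (ZK455.4) the eat-2 controls read 9.57, 9.04 and 9.50, and eat-2 on rapamycin 9.44, 9.31 and 9.64. The N2 controls read 8.13, 7.83 and 7.77, N2 on allantoin 7.94, 7.81 and 8.36, and N2 on rapamycin 7.15, 7.05 and 6.93. Both eat-2 groups overlapped each other and stood 0.68 above the highest N2 array, N2 on allantoin overlapped its controls, and N2 on rapamycin was lowest without overlap. For asm-1 (B0252.2) the group means were 8.70 (SD 0.333) in N2 controls, 8.53 (SD 0.0272) on rapamycin, 8.79 (SD 0.164) on allantoin, 8.86 (SD 0.11) in eat-2 controls and 8.63 (SD 0.361) in eat-2 on rapamycin, n = 3 each. Groups next to each other in the order of these means overlapped throughout, but N2 on rapamycin lay below N2 on allantoin without overlap.

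Of the ceramide synthase genes, which act in the opposite direction to the ceramidases, hyl-1 and hyl-2 had narrow ranges. For hyl-1 (C09G4.1) group means ran from 10.83 (SD 0.187) in N2 controls to 11.07 (SD 0.026) in N2 on allantoin, with 10.85 (SD 0.00999) in eat-2 controls, 10.96 (SD 0.149) in N2 on rapamycin and 11.05 (SD 0.0458) in eat-2 on rapamycin. For hyl-2 (K02G10.6) they were 5.71 (SD 0.0337) in eat-2 controls, 5.84 (SD 0.19) in N2 controls, 5.90 (SD 0.16) in eat-2 on rapamycin, 5.94 (SD 0.174) in N2 on rapamycin and 5.94 (SD 0.153) in N2 on allantoin. Groups next to each other in the order of means overlapped throughout for both genes, but groups further apart did not always. For hyl-1, N2 on allantoin lay above its controls without overlap. In both genes, eat-2 on rapamycin lay above its controls without overlap. The gene lagr-1 (Y6B3B.10), a member of the same family, moved more. It read 6.71, 7.001 and 6.88 in N2 controls, 7.50, 7.09 and 7.45 on rapamycin and 6.32, 6.34 and 6.48 on allantoin, so that rapamycin lay above and allantoin below the controls without overlap. This is the reverse of the order in asm-3. The eat-2 groups, at 6.46 (SD 0.145) and 6.55 (SD 0.142) on rapamycin, overlapped each other and N2 on allantoin.

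For sptl-1 (C23H3.4), a subunit of the enzyme that starts base synthesis, group means were 10.08 (SD 0.228) in N2 controls, 9.64 (SD 0.146) on rapamycin, 10.20 (SD 0.0691) on allantoin, 10.21 (SD 0.121) in eat-2 controls and 10.23 (SD 0.0884) in eat-2 on rapamycin. N2 worms on rapamycin were lowest, with no array overlapping the controls, and the other 4 groups overlapped. For sphk-1 (C34C6.5), the sphingosine kinase, the eat-2 controls read 8.13, 8.14 and 8.12 and eat-2 on rapamycin 8.42, 8.44 and 8.46. The arrays of each group were within 0.0264 and 0.0368 of each other, and the groups did not overlap. The N2 means were 8.28 (SD 0.111) in controls, 8.50 (SD 0.076) on rapamycin and 8.38 (SD 0.103) on allantoin.

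Against N2 controls, 4 of the 10 genes (40%) rose in eat-2 controls and 0 fell, where 1.52% of all probe sets were called. The study had listed sphingolipid metabolism among the few functional terms enriched between these same control groups. The genes were chosen with earlier results of these data known, so their share that differs between the strains is not independent evidence. The 4 genes are named next. These 4 were both ceramidase genes and asm-2 and asm-3. The ceramidase gene asah-1 was 5.52-fold higher, a log2 difference of 2.47 (SE 0.19, limma adjusted p = 0.0442), the 9th largest increase of all probe sets. Next came asm-3 at 5.10-fold, or 2.35 (SE 0.38, adjusted p = 0.223), and asah-2 at 4.29-fold, or 2.10 (SE 0.41, adjusted p = 0.358). The smallest of the 4 was asm-2 at 2.75-fold, or 1.46 (SE 0.18, adjusted p = 0.104). Only asah-1 passed an adjusted p of 0.05, as did 0.0399% of all probe sets, and all 4 genes were called with each array left out in turn. The adjusted p of asah-1 ranged from 0.000148 in a single fit of all 15 arrays to 0.487 without eat-2 control array 3. It also exceeded 0.05 without eat-2 control array 1 (0.382) or 2 (0.239) and without N2 control array 2 (0.124), and was 0.276 in the unmoderated equal-variance test.

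The remaining acid sphingomyelinase, asm-1, differed by 0.16 between the control groups, with a 95% interval of -0.28 to 0.60 (adjusted p = 0.81). The ceramide synthase genes gave 0.03 for hyl-1 (-0.26 to 0.31, adjusted p = 0.959) and -0.13 for hyl-2 (-0.42 to 0.16, adjusted p = 0.764). These intervals leave out a 2-fold difference in signal in either direction. The signal of hyl-2 was low, with group means of 5.71 to 5.94, below the lowest array median of 6.79. The other 3 genes were within -0.40 and 0.13. The median over the 10 genes was 0.15, against 0.02 over all probe sets. Over all 15 arrays, the probe sets with every eat-2 array above every N2 array made up 0.958% of those tested, and the 4 genes named above are among them. Of 7 intestinal markers, 1 was called higher in the same comparison and 0 lower, and their mean signal was 9.88 in eat-2 controls (9.80 to 9.93 by array) against 9.75 in N2 controls (9.43 to 10.14). Sperm markers had 1 of 6 lower and hypodermal markers 1 of 6 lower, and the other 5 marker lists had 0 called. The part of tissue composition in the ceramidase and sphingomyelinase differences was not tested.

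**Figure D2:**
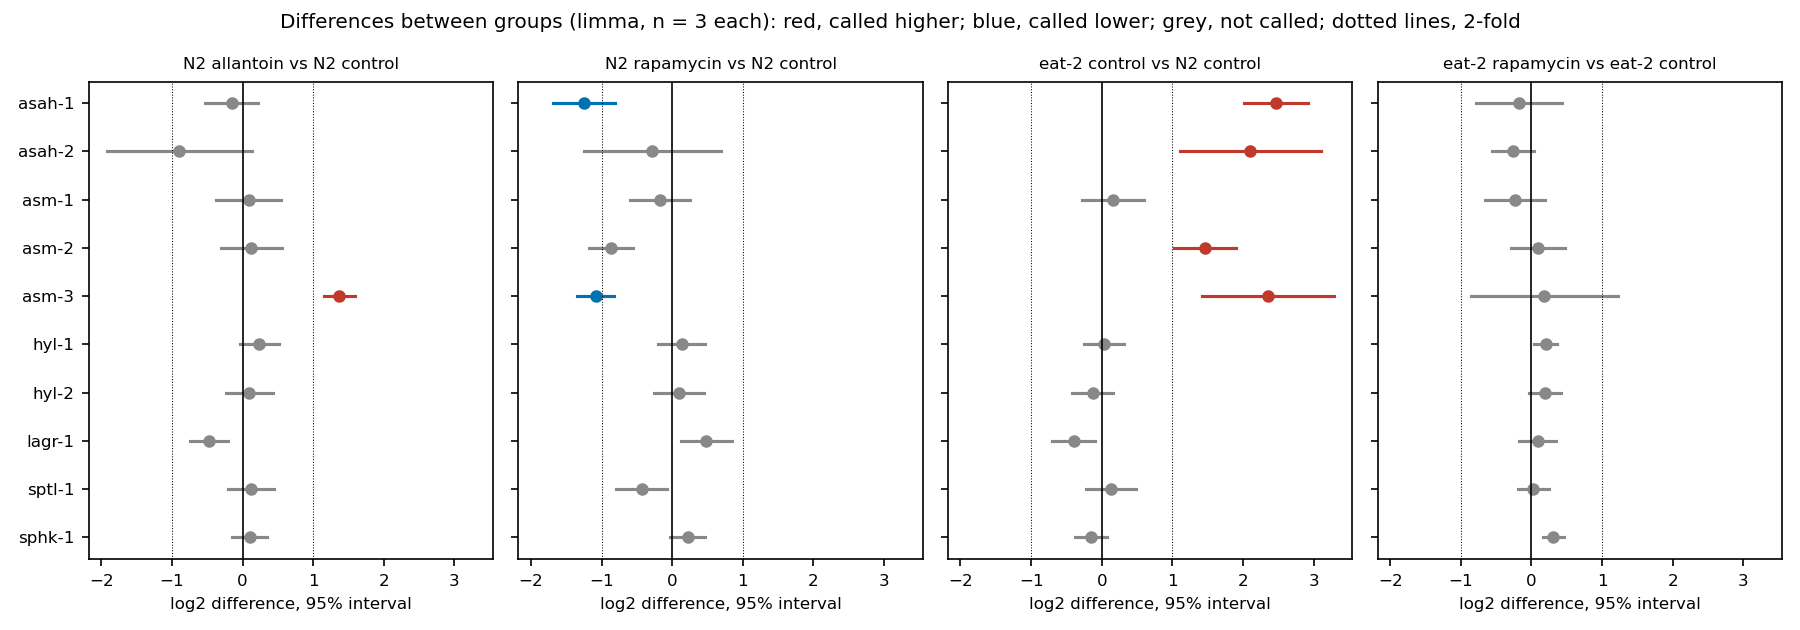
Log2 difference with its 95% interval (horizontal axis) for each of the 10 genes in the 4 comparisons with a control, n = 3 arrays a group, coloured where called. The called genes are asm-3 on allantoin, asah-1 and asm-3 on rapamycin in N2, and asah-1, asah-2, asm-2 and asm-3 in eat-2, while no gene is called for rapamycin in eat-2.

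On allantoin, N2 worms had 1 of the 10 genes called, against 4.05% of all probe sets. This was asm-3, which rose 2.58-fold, a log2 difference of 1.37 (SE 0.09, 95% interval 1.15 to 1.59). Its adjusted p of 0.113 was the lowest of all 22548 probe sets in this comparison, and ranged from 0.00198 without N2 control array 1 to 0.544 without N2 allantoin array 1. It was 0.0344 in a single fit of all 15 arrays. An adjusted p under 0.05 was reached by 0 of the 10 genes in limma and by 0% of all probe sets. The unmoderated test also gave 0 after adjustment. In limma 2 of the 10, asm-3 and lagr-1, had an unadjusted p under 0.05. Such values were common, as the pathway gene bre-3, at 0.0434, ranked 3976th by p of all 22548 probe sets. The genes asm-2 and asm-1, related to asm-3, differed by 0.13 (-0.31 to 0.56, adjusted p = 0.693) and 0.09 (-0.37 to 0.55, adjusted p = 0.8).

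The ceramidase gene asah-1 differed by -0.15 on allantoin (-0.53 to 0.22, adjusted p = 0.563) and asah-2 by -0.89 (-1.92 to 0.13, adjusted p = 0.286). Without N2 control array 1, the lowest of its group, asah-2 was called, at -1.30 (SE 0.30, adjusted p = 0.0353), and the number of genes called became 2. For hyl-1 and hyl-2 the differences were 0.24 (-0.04 to 0.52, adjusted p = 0.293) and 0.10 (-0.24 to 0.43, adjusted p = 0.693). The remaining 3 genes ranged from -0.48 for lagr-1 to 0.12 for sptl-1. The median over the 10 genes was 0.10 against 0.05 over all probe sets. Sperm markers were called lower for 4 of 6, pharyngeal markers for 3 of 3 and muscle markers for 1 of 6, and the other 5 lists had 0 called. The mean of the 6 sperm markers was 6.23 on allantoin (5.89 to 6.57 by array) and 7.81 in controls (6.81 to 8.51). The mean of the 7 germline markers, of which 0 were called, was 11.95 on allantoin (11.90 to 11.98) and 11.46 in controls (11.14 to 11.78), without overlap. The part of these lists in the asm-3 difference was not tested.

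On rapamycin, N2 worms had 2 of the 10 genes called, both lower, against 8.41% of all probe sets. The ceramidase gene asah-1 fell 2.38-fold, a log2 difference of -1.25 (SE 0.18, limma adjusted p = 0.023), and asm-3 fell 2.12-fold, a difference of -1.08 (SE 0.11, adjusted p = 0.0113). A smaller decrease of asm-2, at -0.87 (SE 0.13, adjusted p = 0.025), passed the adjusted threshold but not 2-fold. In all 3 of these genes no rapamycin array overlapped a control array. They were the 3 of 10 genes past an adjusted p of 0.05, where 9.38% of all probe sets passed. Without N2 rapamycin array 2, asm-3 dropped to just under 2-fold, at -0.999 (adjusted p = 0.0478), leaving 1 gene called. The adjusted p of asah-1 then was 0.101, and it reached 0.137 without N2 rapamycin array 3, 0.0742 without N2 rapamycin array 1 and 0.0626 without N2 control array 3. That of asm-3 was 0.0596 without N2 rapamycin array 1 and 0.0822 without N2 rapamycin array 3. For asm-2 it rose to 0.0841, 0.102 and 0.139 without N2 rapamycin array 1, 2 or 3, and to 0.0537 without N2 control array 3. In the unmoderated test none of the 3 kept an adjusted p under 0.05, with 0.119 for asah-1, 0.11 for asm-2 and 0.075 for asm-3.

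Among the genes not called, asah-2 differed by -0.28 on rapamycin (-1.24 to 0.69, adjusted p = 0.673) and asm-1 by -0.18 (-0.60 to 0.25, adjusted p = 0.533). The ceramide synthase genes hyl-1 and hyl-2 differed by 0.14 (-0.20 to 0.47, adjusted p = 0.537) and 0.10 (-0.26 to 0.45, adjusted p = 0.695). The other 3 ranged from -0.43 for sptl-1 (adjusted p = 0.106) to 0.48 for lagr-1 (adjusted p = 0.0835). The median over the 10 genes was -0.23, against -0.02 over all probe sets. In this comparison 4 of 6 sperm markers, 4 of 6 hypodermal markers and 3 of 7 intestinal markers were called higher, and 1 intestinal and 1 of 7 germline markers lower. The mean over the hypodermal markers was 9.07 on rapamycin (8.93 to 9.15 by array) against 8.08 in controls (7.86 to 8.44), and that over the germline markers 10.94 (10.88 to 11.02) against 11.46 (11.14 to 11.78). Their part in the lower ceramidase and sphingomyelinase signals was not tested.

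In eat-2 mutants, rapamycin left 0 of the 10 genes called in limma, against 3.06% of all probe sets, and the unmoderated test also called 0. An unadjusted p under 0.05 was reached by 2 of the 10, hyl-1 and sphk-1. The sphingosine kinase gene sphk-1 rose 1.24-fold, a difference of 0.31 (SE 0.06, adjusted p = 0.0241), and was the 1 gene of the 10 past an adjusted p of 0.05, which 13.8% of all probe sets passed. Its adjusted p was 0.0817 or 0.0789 without eat-2 rapamycin array 1 or 3, and 0.0717 or 0.0888 without eat-2 control array 1 or 3. The ceramidase genes differed by -0.17 for asah-1 (-0.78 to 0.44, adjusted p = 0.708) and -0.27 for asah-2 (-0.56 to 0.03, adjusted p = 0.21). The sphingomyelinase genes differed by -0.23 for asm-1 (-0.66 to 0.19, adjusted p = 0.434), 0.09 for asm-2 (-0.29 to 0.48, adjusted p = 0.746) and 0.18 for asm-3 (-0.85 to 1.22, adjusted p = 0.82). The interval of asm-3 still holds a change of 2-fold upwards. For hyl-1 and hyl-2 the differences were 0.20 (0.04 to 0.36, adjusted p = 0.0972) and 0.19 (-0.04 to 0.42, adjusted p = 0.241). The median over the 10 genes was 0.09, against 0.03 over all probe sets. Of the marker lists, 4 of 6 sperm markers were called lower and 1 of 6 hypodermal markers higher, and their part in the sphk-1 value was not tested.

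The difference between the strains in the response to rapamycin was tested as an interaction over 12 arrays, taken as the change in eat-2 minus the change in N2. Of the 10 genes 2 (20%) were called, against 13.7% of all probe sets. These were asah-1 at 1.08 (SE 0.34, adjusted p = 0.0437) and asm-3 at 1.27 (SE 0.50, adjusted p = 0.0882). For asm-2 the interaction was 0.96 (SE 0.22, adjusted p = 0.0127), just short of 2-fold. The 2 genes past an adjusted p of 0.05 were asah-1 and asm-2, a threshold passed by 24.4% of all probe sets. For the ceramidase gene asah-2, which the strain also separated, it was 0.01 (-0.98 to 1.01, adjusted p = 0.987). The calls depended on single arrays, and the adjusted p of asah-1 ranged from 0.0121 to 0.0997 over the settings tried. Without N2 rapamycin array 2 or eat-2 control array 2, 1 gene was called, asah-1, and asm-3 stood at 1.18 and 0.90. Without eat-2 rapamycin array 1 or 3, 0 were called, with asah-1 at 0.96 and 0.91 and asm-3 at 1.15 and 1.07. Without N2 control array 3, asah-1 fell short of 2-fold at 0.97, and without eat-2 control array 3 asm-3 had an unadjusted p of 0.0562. The interaction of asm-2 had an adjusted p of at most 0.0365 in all 19 settings tried.

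With rapamycin on both sides, eat-2 exceeded N2 in 4 of the 10 genes, where 18.7% of all probe sets were called. They were asm-3 at 12.3-fold (3.62, SE 0.25, adjusted p = 1.18e-05), asah-1 at 11.7-fold (3.55, SE 0.24, adjusted p = 1.10e-05), asm-2 at 5.36-fold (2.42, SE 0.11, adjusted p = 1.77e-06) and asah-2 at 4.33-fold (2.11, SE 0.11, adjusted p = 3.61e-06). At an adjusted p under 0.05 there were 6 of 10, with sptl-1 higher by 0.59 and lagr-1 lower at -0.79, but so were 58% of all probe sets. Comparing the drugs in N2, rapamycin arrays were lower than allantoin arrays by 5.48-fold for asm-3 (-2.45, SE 0.10, adjusted p = 4.44e-07) and by 2.14-fold for asah-1 (-1.10, SE 0.12, adjusted p = 5.52e-05). These were the 2 genes called of 10 (20%), about the share of all probe sets at 20.4%, and 7 of 10 (70%) passed an adjusted p of 0.05, against 61.3%. Among the 7, asah-2 at 0.61 and lagr-1 at 0.96 were higher on rapamycin, and asm-2 at -0.99, sptl-1 at -0.56 and asm-1 at -0.26 were lower. Without each array in turn the number called was 2 to 3, with asm-2 added without N2 rapamycin array 1 or N2 allantoin array 1 or 2 and lagr-1 added without N2 rapamycin array 2 or N2 allantoin array 3. The adjusted p of asm-1 exceeded 0.05 without any 1 of the 6 arrays but N2 allantoin array 2, with values of 0.07 to 0.123. Most marker lists also differed. In eat-2 against N2 on rapamycin, 5 of 6 sperm, 4 of 6 hypodermal, 3 of 6 muscle, 2 of 6 neuronal, 3 of 3 pharyngeal and 2 of 7 intestinal markers were lower, and 4 of 7 germline, 1 hypodermal and 1 intestinal marker higher. In N2 on rapamycin against allantoin, 5 of 6 sperm, 4 of 6 hypodermal, 3 of 6 muscle, 2 of 6 neuronal, 3 of 3 pharyngeal and 3 of 7 intestinal markers were higher, and 4 of 7 germline, 1 hypodermal and 1 intestinal marker lower. Their part in these differences was not tested. Each of these comparisons shares its arrays with others described above.

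The other genes of the pathway were read from a list of 28, of which 23 had a probe set of their own, and the glucocerebrosidase genes gba-1 to gba-4 and bre-5 were not analysed here. In eat-2 against N2 controls 1 of the 23 was called (4.35%, against 1.52% of all probe sets), acs-1, an acyl-CoA synthetase for branched-chain fatty acids, at -1.38 (SE 0.49, adjusted p = 0.599). Its N2 control arrays read 10.86, 10.41 and 8.90 and its eat-2 control arrays 8.72, 8.68 and 8.65, so that 1 control array lay close to the mutants. It was not called in the unmoderated test, without any 1 of the eat-2 control arrays or without N2 control array 1 or 2. The sphingosine phosphate lyase family gene spl-2 was just short of 2-fold in the same comparison, at -0.996 (SE 0.15, adjusted p = 0.178). Its control arrays did not overlap between strains, and it was called after cyclic loess, at a fold of 1.5 and without eat-2 control array 2 or 3 or N2 control array 3. On allantoin 0 of the 23 were called in limma (against 4.05% of all probe sets) and 0 in the unmoderated test, with 4 at an unadjusted p under 0.05, and acs-1 was called without N2 control array 3. The highest limma p of these 4 was 0.0434, for bre-3, which ranked 3976th by p of all probe sets. On rapamycin 1 of the 23 was called in N2 (4.35%, against 8.41%), the ceramide glucosyltransferase gene cgt-1, which makes glucosylceramide from ceramide. It rose 2.78-fold, from 7.57, 8.33 and 7.79 in controls to 9.71, 9.22 and 9.17, a difference of 1.47 (SE 0.24, adjusted p = 0.0291). It was called in every alternative fit of that comparison, joined by sms-2 without N2 control array 2 and by 3 genes at a fold of 1.5. It was also among 4 genes past an adjusted p of 0.05 (17.4%, against 9.38%), all higher, with the dihydroceramide desaturase gene ttm-5 at 0.66, spl-2 at 0.62 and the glycosyltransferase gene bre-3 at 0.56. These 4 became 0 in the unmoderated test, without any 1 of the N2 rapamycin arrays and without N2 control array 3, and 2 with median centring.

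In eat-2, rapamycin left 0 of the 23 called in limma (against 3.06% of all probe sets) and 0 in the unmoderated test, with 7 at an unadjusted p under 0.05. The highest limma p of these 7 was 0.0247, for sptl-2, which ranked 5153rd by p of all probe sets. At an adjusted p under 0.05, which 3 of the 23 passed (13.0%, against 13.8%), cgt-1 was lower, at -0.53 (SE 0.08), and spl-1 and spl-2 were higher, at 0.35 (SE 0.08) and 0.99 (SE 0.11). The change of spl-2 was 1.98-fold, and it was called after median centring or cyclic loess, at a fold of 1.5, and without eat-2 rapamycin array 1 or 2 or eat-2 control array 2 or 3. The adjusted p of spl-1 exceeded 0.05 in the unmoderated test and without any 1 of the 6 arrays but eat-2 rapamycin array 2. The interaction of cgt-1 was -2 (SE 0.27, adjusted p = 0.00194), the 1 call among the 23 (4.35%, against 13.7%). Between the drugs in N2 2 of the 23 were called (8.70%, against 20.4%), where cgt-1 was higher on rapamycin by 1.79 (SE 0.14, adjusted p = 9.26e-06) and the sphingomyelin synthase gene sms-2 lower, at -1.06 (SE 0.12, adjusted p = 7.23e-05). Here sms-2 was not called after cyclic loess or without N2 rapamycin array 1 or N2 allantoin array 2, and 4 genes were called without N2 allantoin array 3, where sptl-2 and acs-1 were added. With rapamycin on both sides, the 1 gene called (4.35%, against 18.7%) was cgt-1, lower in eat-2 at -1.91 (SE 0.15, adjusted p = 1.96e-05), and 3 were called without eat-2 rapamycin array 2, where sms-2 and acs-1 were added. The medians over the 23 genes were -0.07, -0.11, -0.05 and 0.08 for eat-2, allantoin, rapamycin in N2 and rapamycin in eat-2, beside the medians over all probe sets of 0.02, 0.05, -0.02 and 0.03.

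**Figure D3:**
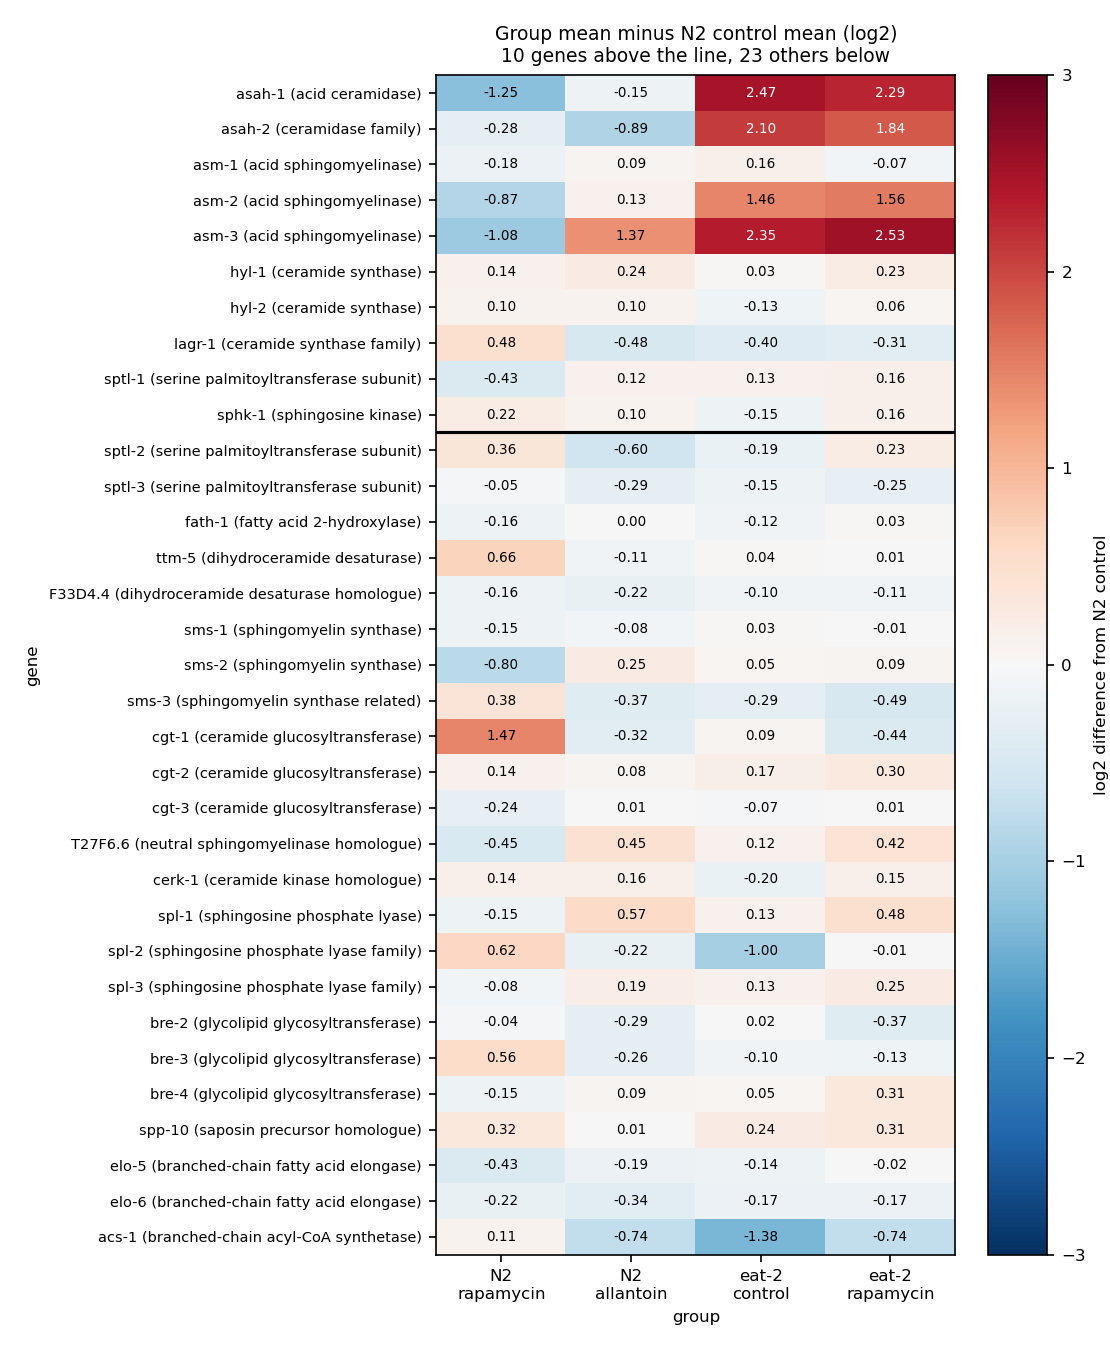
Difference of each group mean from the N2 control mean (colour and printed value, log2) for the 10 genes above the line and 23 other genes of the pathway below it, with groups in columns. In both eat-2 columns asah-1, asah-2, asm-2 and asm-3 are 1.46 to 2.53 above N2 controls, while cgt-1 has its largest difference in N2 on rapamycin, at 1.47.

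Array by array, the ceramidase and sphingomyelinase genes, and also hyl-1, were lowest on the same-numbered array of each eat-2 group. The array numbered 2 was the lowest of the 3 in eat-2 controls and again in eat-2 on rapamycin for 6 of the 10 genes, namely asah-1, asah-2, asm-1, asm-2, asm-3 and hyl-1. It was so for 14% of all probe sets. These arrays are separate samples, and their deviations from group means over all probe sets had r of -0.106. The pattern of the 6 genes was noticed in the values and was not tested. On eat-2 rapamycin array 2, asah-1 was 0.82 below the next array and asm-3 was 0.87 below it. In the N2 controls asah-1, asah-2 and asm-1 were all highest on array 3, and both ceramidase genes lowest on array 1, while asm-3 stayed within 0.08 on arrays between which asah-2 differed by 1.69.

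**Figure D4:**
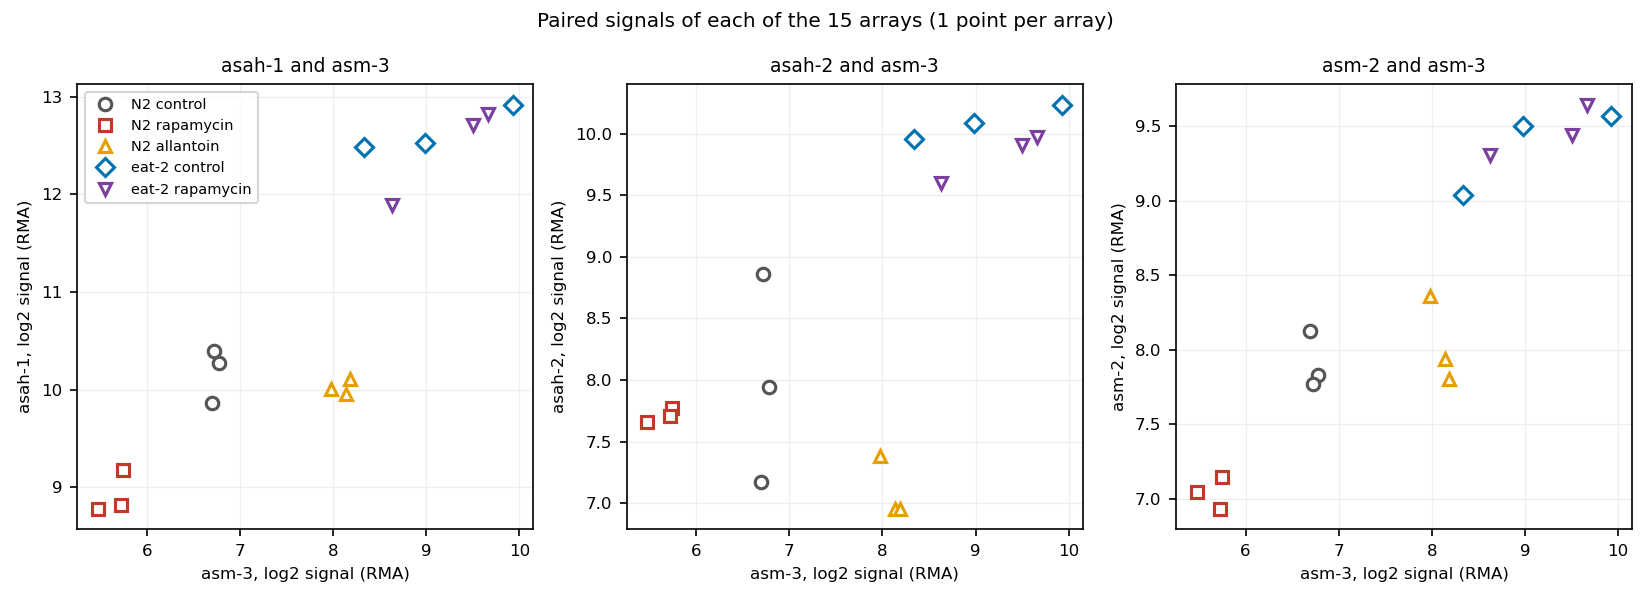
Log2 RMA signal of asah-1, asah-2 and asm-2 (vertical axes) against that of asm-3 on the same array (horizontal axes), with 1 point for each of 15 arrays and a symbol for each group. The eat-2 arrays lie in the upper right of each panel, and the N2 allantoin arrays have asm-3 above the N2 controls, at a mean of 8.10, with asah-1 and asm-2 among or near the controls.

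The genes most like the pair of widest span were found by Pearson's r over the 15 arrays, which fall into 5 groups, so that r mainly reads the differences between groups. For asah-1 they were spp-8 (r = 0.988), a gene of the saposin-like family, and the lysosomal lipase genes lipl-5 (r = 0.975) and lipl-1 (r = 0.970). With group means taken out, r was 0.708, 0.162 and 0.493. The mean of spp-8 was 12.40 in eat-2 controls, 10.52 in N2 controls and 9.76 in N2 on rapamycin. For asm-3 they were ule-5 (r = 0.969), Y7A5A.5 (r = 0.967) and Y49E10.18 (r = 0.965), with r of 0.772, 0.845 and 0.883 once group means were taken out. The means of ule-5 were 11.22 in N2 on rapamycin, 11.85 in N2 controls, 12.17 on allantoin, 12.79 in eat-2 controls and 13.0 in eat-2 on rapamycin, the same order as in asm-3. Those of Y7A5A.5 lay between 4.62 and 5.46, around the bound of dim probe sets.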

How the data were processed

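The authors hybridised total RNA of whole worms and deposited log2 signals made with RMA in Affymetrix Expression Console, of which no version is given in the sources used here, and compared conditions in pairs in Transcriptome Analysis Console. The deposited table holds 22625 probe sets on 15 arrays, of which 77 controls were not tested. Among the remaining 22548, 20766 carried 1 gene symbol, 887 several and 895 none, and the symbols of all 10 genes matched RefSeq WBcel235. Groups came from the sample titles.

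Each pair of groups was fitted with limma 3.58.1 (R 4.3.3) on its 6 arrays, and the interaction on 12. A probe set was called at an unadjusted p under 0.05 and over 2-fold, the study's threshold, and intervals are at 95%. P-values were adjusted by Benjamini-Hochberg. All 10 genes were named, with statistics where a gene passed a threshold and for the asm, asah and hyl genes in the 4 comparisons with a control. Up to 3 called pathway genes per comparison and the 3 genes most like each of 2 members were added. The genes and lists were chosen with earlier results of these data known. The tests were tried on simulated data.

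Alternatives were a single fit of all 15 arrays, leaving out the dimmest 25% of probe sets, a replicate block, median centring, cyclic loess, an unmoderated equal-variance test, a fold of 1.5, the mean of a gene's probe sets, and each array left out. No sequences or coordinates were read.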

Additional observations from a re-analysis of the deposited data

Results flagged for a closer look

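The change with rapamycin differed between eat-2 and N2 in a test of the difference itself, the limma interaction over 12 arrays, for 8 of these genes, called or past an adjusted p of 0.05. At an adjusted p under 0.05 there were 2 of the 10 enzymes (20%) and 5 of the 23 other genes (21.7%), against 24.4% of all probe sets, and 2 (20%) and 1 (4.35%) were called, against 13.7%. Values are the log2 change in eat-2 minus that in N2. The differences were 1.08 for asah-1, 0.962 for asm-2 and 1.27 for asm-3 among the 10 enzymes, with adjusted p of 0.0437, 0.0127 and 0.0882, so that asm-3 did not pass adjustment. Among the other genes of the pathway they were -0.698 for ttm-5, 0.834 for sms-2, -2 for cgt-1, 0.752 for T27F6.6 (a neutral sphingomyelinase homologue) and -0.592 for bre-3, with adjusted p of 0.00931, 0.0393, 0.00194, 0.0342 and 0.0124.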

How the results depend on the processing

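Pairs of an enzyme and a comparison past a threshold numbered 25, and 310 of their 343 alternative fits stayed past it. The single fit, replicate block, unmoderated test, fold of 1.5 and omission of dim probe sets leave the estimate unchanged, so they could not change its direction. A fold of 1.5 could not lose a threshold either. Direction was also kept with median centring, cyclic loess and each array left out. With an array left out, 146 of 168 fits stayed past the threshold. Of the 45 pairs not past a threshold, 22 changed sign in at least 1 fit and 1 was called in at least 1, asah-2 on allantoin. Called genes between rapamycin and allantoin in N2 numbered 1 after cyclic loess, without asah-1, and 5 at a fold of 1.5, and for the interaction 1 after cyclic loess and 1 in the unmoderated test. With each array left out, counts ran from 1 to 2 for allantoin, from 1 to 2 for rapamycin in N2, from 2 to 3 for rapamycin against allantoin, and from 0 to 3 for the interaction. Median centring gave 3 for each of the last pair, with asm-2 added. A single fit of all 15 arrays passed 4 genes in eat-2 at an adjusted p under 0.05, 2 on allantoin and 6 on rapamycin in N2, where the pairwise fits passed 1, 0 and 3. Over all probe sets the single fit passed 374, 2519 and 7785 in these comparisons, against 9, 0 and 2116 in the pairwise fits. The rise in these counts was therefore not limited to the enzymes. Pearson's r of the deviations from group means was computed between same-numbered arrays. It was over 0.1 in 9 of 30 pairs (range -0.354 to 0.454). Negative values also occurred, the lowest for array 2 of N2 on rapamycin and of eat-2 controls. For N2 and eat-2 controls r was 0.448, 0.454 and -0.165 for arrays 1, 2 and 3. Differently numbered arrays were not compared, so whether the numbers pair the arrays is not settled here. With the number as a replicate block 4 genes were called in eat-2, 1 on allantoin, 2 on rapamycin in N2, 0 on rapamycin in eat-2 and 2 for the interaction, and an adjusted p under 0.05 was lost by asah-1 in eat-2 (0.122), by asah-1 (0.0641), asm-2 (0.0563) and asm-3 (0.0561) on rapamycin in N2, and by sphk-1 in eat-2 (0.0887). Median centring shifted the median of all probe sets by 0.10, -0.10, -0.20, 0.23 and 0.18 for allantoin, rapamycin in N2, rapamycin against allantoin, the strains on rapamycin and the interaction. Taking the mean of a gene's probe sets leaves the 10 enzymes as they are, since each has 1. Among the 23 other genes it left the counts called as they were, and those past an adjusted p of 0.05 went from 4 to 5 on rapamycin in N2 (sms-2) from 3 to 4 in eat-2 (cerk-1) and from 10 to 11 between the strains on rapamycin (spp-10). The 4 became 0 and the 3 became 2 with the replicate block, and 7 and 1 in the single fit. For rapamycin in N2 and in eat-2, the pairwise fits passed 2116 and 3118 of all probe sets. These became 156 and 1609 with the block, and 7785 and 1980 in the single fit. The number of arrays limits what could be detected.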
